A study of Mus musculus with 17 samples.

Results

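The enzymes of fatty acid beta-oxidation were followed in the non-infarcted left ventricle of the mouse after myocardial infarction (MI), with and without valsartan. The set was 35 genes chosen by function and not by their values, of which 33 had at least 1 probe in the array annotation (66 probes) and 29 were measured above the signal filter (50 probes), among 8236 genes tested in all. It held 22 mitochondrial enzymes (20 measured), 5 peroxisomal enzymes (3 measured) and 8 enzymes with both or other locations (6 measured). Acsl1 and Acad11 had no probe in the annotation. The probes of Cpt1a, Acsl4, Ehhadh and Crot did not pass the filter.

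The arrays, MouseWG-6 v.2 BeadChips on which the brightness of probe-carrying beads reports how much of a transcript is present, came from female mice, 1 array per mouse. The strain was spelled C57/BL6 on the labels and C57BL/6N in the methods. The methods give the mice as 8 to 10 weeks old, and the arrays were from week 4 after surgery. MI mice (n = 6) had the left anterior descending coronary artery tied, MI+Val mice (n = 5) had the same ligation and then received valsartan, which blocks the type 1 angiotensin II receptor, at 1 mg/kg/day in drinking water, and sham mice (n = 6) were operated without ligation. Infarcted mice entered the study only within a set range of ejection fraction and were randomized to vehicle or valsartan. The paper also calls the vehicle group untreated. RNA was taken at week 4 from the posterior and inferior wall, remote from the infarct.

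Beta-oxidation is the main source of ATP in the adult heart. A long-chain fatty acid is activated to acyl-CoA, carried into the mitochondrion as acylcarnitine, and shortened in repeated rounds of dehydrogenation, hydration, a further dehydrogenation and thiolysis that release acetyl-CoA. Electrons from the acyl-CoA dehydrogenases pass through the electron transfer flavoprotein to ubiquinone, and peroxisomes shorten chains that mitochondria handle poorly. Transcription of these genes in heart muscle is known to be driven by PPAR-alpha and by the estrogen-related receptors with the coactivator PGC-1.

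RefSeq promoter windows on GRCm38.p6, 250 bases before to 50 bases after a start site, were available for 28 members (29 windows) and were searched on both strands for 3 motifs of these receptors. The hexamer AGGTCA, the core that both receptor families bind, was in 5 of 29 windows (17.2%), those of Acadm, Acacb, Echs1, Acadvl and Cpt1a, against 16.3% of all 32851 windows. The estrogen-related receptor element TCAAGGTCA, which contains the hexamer, was in 0 member windows and in 0.423% of all windows, and 2 copies of the hexamer in direct repeat with 1 base between them, the PPAR element, were in 0 member windows and in 0.0396% of all. A match is a string of letters and not a measured site. The windows of Acadvl and Echs1 are shown because the hexamer lay at nearly the same distance before the start site in each, its first base at position -87 in Acadvl and -83 in Echs1. The window of Hadhb is shown because it is shared. Hadha and Hadhb, which encode the subunits of the trifunctional protein, start on opposite strands of chromosome 5 with 272 bases between their start sites, and their windows overlap over 228 bases. Capitals mark the hexamer in Acadvl and Echs1, and the transcribed 50 bases in Hadhb.
Acadvl, chr11:70015379-70015678, minus strand: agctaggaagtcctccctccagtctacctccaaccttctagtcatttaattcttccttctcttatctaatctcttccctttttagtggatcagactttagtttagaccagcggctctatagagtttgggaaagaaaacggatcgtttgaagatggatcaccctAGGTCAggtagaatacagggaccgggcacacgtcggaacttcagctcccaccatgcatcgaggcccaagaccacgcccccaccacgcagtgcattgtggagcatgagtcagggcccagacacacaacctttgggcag
Echs1, chr7:140116372-140116671, minus strand: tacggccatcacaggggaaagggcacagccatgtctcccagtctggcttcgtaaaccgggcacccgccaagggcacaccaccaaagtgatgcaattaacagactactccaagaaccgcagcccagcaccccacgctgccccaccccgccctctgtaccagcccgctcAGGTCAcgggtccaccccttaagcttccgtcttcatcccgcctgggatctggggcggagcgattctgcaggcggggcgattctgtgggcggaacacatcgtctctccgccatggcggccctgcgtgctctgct
Hadhb, chr5:30155003-30155302, plus strand: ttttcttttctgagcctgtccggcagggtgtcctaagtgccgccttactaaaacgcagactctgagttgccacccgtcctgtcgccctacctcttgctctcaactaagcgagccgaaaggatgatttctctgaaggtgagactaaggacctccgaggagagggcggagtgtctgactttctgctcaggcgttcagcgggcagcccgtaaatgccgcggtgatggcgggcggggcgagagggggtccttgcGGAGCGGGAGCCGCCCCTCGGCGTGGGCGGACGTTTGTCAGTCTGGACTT

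The 17 arrays had median signals of 90 to 120.3 and between 13929 and 15206 probes with a detection p under 0.01, and the mean correlation of an array with the others was 0.9698 to 0.9821. The 3 chips they were on carried the groups unevenly, with 4 of 6 MI arrays but 1 of 6 sham arrays on the first. Of 9 cardiomyocyte markers, 8 were measured, among them Myh6, Tnni3 and Myl2 on all 17 arrays, and none of the 5 adipocyte markers passed the filter. Atrial Myl7 was detected on 5 arrays (2 sham, 1 MI, 2 MI+Val), on which atrial Myl4 had a log2 intensity of 9.96 to 13.15, against 6.95 to 8.22 on the other 12. Counts are given below with and without these 5 mice.

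Between MI and sham mice, most beta-oxidation genes had a lower mean in MI, by small amounts. The log2 difference was negative in 25 of 29 members, with a median of -0.20 and a range from -0.56 to 0.34, whereas over all 8236 genes 52.09% were negative and the median was -0.01. With 1 probe per gene, none of the 29 members passed an adjusted p under 0.05 in limma in either direction, where 2.32% of all genes tested were called lower and 3.31% higher. The F test over the 3 groups, at an adjusted p under 0.10, called 0 members and 4.80% of all genes. At an unadjusted p under 0.05, 11 members were lower and 0 were higher, against 9.93% and 9.76% of all genes. The sham and MI values did not overlap in 2 members, Etfb and Ech1, as in 3.55% of all genes. These small differences were sensitive to how the arrays were treated. With chip in the model, 4 members were lower and 1 higher at an unadjusted p under 0.05 (7.35% and 7.70% of all genes). The median was then -0.14. Within the 3 chips the median was -0.13, -0.11 and -0.07. Each of these values rests on 1 sham array (chip 1) or 1 MI array (chips 2 and 3). Without the 5 mice with detected Myl7, 6 members were lower and 0 higher (7.33% and 8.09% of all genes), and the median was -0.17. Without background correction 4 members were called lower (2.66% of all genes), and with the authors' deposited normalized values 3 were (214 of 8236 genes). Members of low signal differed by less without background correction, Acat1 by -0.30, Acsl3 by -0.19, Echs1 by -0.20 and Pecr by -0.11, and with the deposited values Acat1 differed by -0.20. The cause was not tested.

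**Figure D1:**
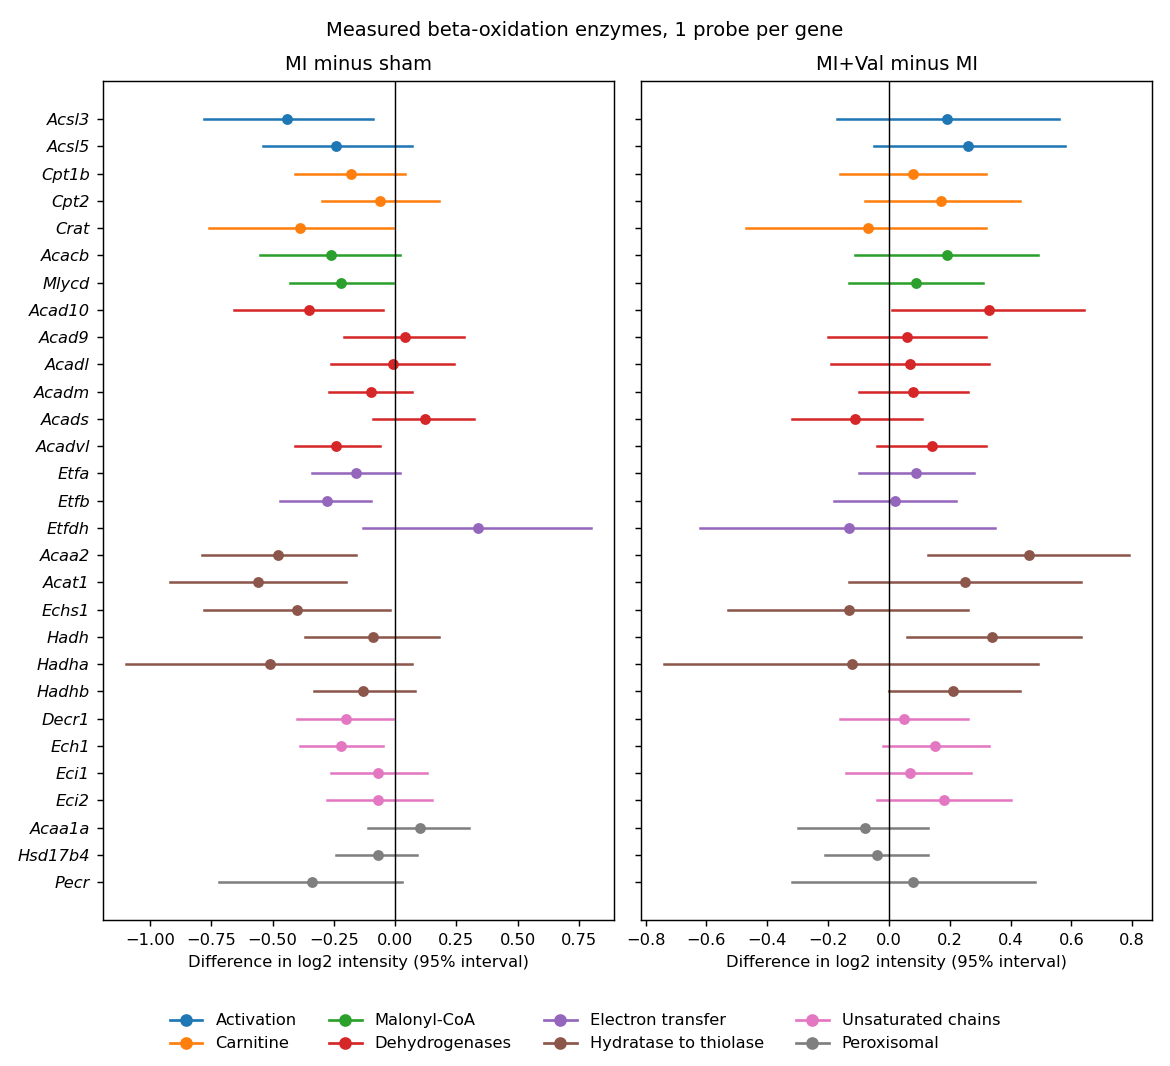
Difference in log2 intensity between MI and sham (left) and between MI+Val and MI (right) for the 29 measured members, ordered by role and coloured by it. Points are limma estimates from 1 probe per gene and lines are 95% confidence intervals. Of 29 points, 25 lie left of 0 in the left panel and 22 lie right of 0 in the right panel.

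In the bulk tissue studied here, fewer cells of a type and less RNA per cell cannot be told apart. Cardiomyocyte markers mostly had the same sign as the members but differed in size. Of 8 measured, 7 had a negative difference between MI and sham, with a median of -0.27 (-0.13 with chip in the model), and 0 were called. Myh6 and Pln differed by -0.43, Atp2a2 by -0.38, Ryr2 by -0.30 and Tnni3 by -0.24. Mb, Actc1 and Myl2 were nearly unchanged, at -0.03, -0.02 and 0.04. Their summed normalized intensity was 53544 to 63972 in sham mice, 51539 to 63281 in MI mice and 58236 to 65874 in MI+Val mice. Mitochondrial genes outside beta-oxidation, such as the citrate synthase gene Cs and respiratory chain subunits, had a median difference of -0.08 over 11 measured, and 0 were called. These differences ran from -0.45 (Atp5a1) to 0.15 (Sdhb), with 7 negative and 4 positive, and Cs differed by -0.27. At an unadjusted p under 0.05 in limma, 2 of the 11 were lower and 0 higher, against 9.93% and 9.76% of all genes. All 5 measured macrophage markers had a positive difference, with a median of 0.55. Of these, 4 were called higher (3.31% of all genes), and 1 with chip in the model (1.49% of all genes). Their summed intensity was 2461 to 3669 in sham and 3955 to 7216 in MI mice. Fibroblast markers had a median of 0.40 over 7 measured, of which only Tcf21 was called (0 with chip in the model), and summed to 1219 to 1605 in sham and 1518 to 1891 in MI mice. The part of these in the differences of the members was not tested.

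Activation of fatty acids by long-chain acyl-CoA synthetases was represented by Acsl3 and Acsl5, both with a lower mean in MI on the probe used. The log2 intensity of Acsl3 was 6.29 to 6.73 (median 6.47) in sham and 5.27 to 6.56 (median 6.17) in MI mice, and in MI+Val mice 1 to 5 it was 6.32, 6.40, 6.33, 6.36 and 5.87. The ranges overlapped, and the difference of -0.44 ± 0.16 (SE) had an adjusted p of 0.135. For Acsl5, 2 probes passed and gave opposite signs. The probe used differed by -0.24 and the brighter by 0.23 between MI and sham, with adjusted p of 0.389 over genes for the first and 0.261 over probes for the second. The probes of Acsl4, a synthetase that prefers arachidonate, were detected on few arrays and were not well above background.

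In the carnitine shuttle, 1 probe of Crat passed the adjusted test over probes, and it was singled out after its values were seen. Crat encodes carnitine acetyltransferase, which buffers acetyl-CoA as acetylcarnitine, and 3 of its probes passed the filter. On the brightest, ILMN_2679456, the log2 intensity was 10.87 to 11.12 (median 11.04) in sham and 10.56 to 10.76 (median 10.63) in MI mice, and in MI+Val mice 1 to 5 it was 10.96, 10.85, 10.75, 10.59 and 10.88. Every MI mouse was below every sham mouse, and the MI+Val mice spread over the gap between these groups and into both. Crat fell on this probe by 0.38 ± 0.08 (SE) on the log2 scale, a ratio of 0.77, with an adjusted p of 0.00871 in the limma fit of all 11897 probes that passed the filter. Of the 50 member probes only this 1 was called lower there, a share near the 2.03% over all probes. With chip in the model the difference was -0.41 (adjusted p = 0.0198). Within the 3 chips it was -0.37, -0.36 and -0.44, but each of these values rests on 1 sham mouse or 1 MI mouse. Leaving out each mouse in turn kept the adjusted p between 0.00659 and 0.0241, and without the 5 mice with detected Myl7 the difference was -0.36 with an adjusted p of 0.0868.

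The probe that stood for Crat in the fit of genes was another, ILMN_1220786, because the widest interquartile range decided the choice. It ranged from 7.07 to 8.22 in sham and from 6.73 to 7.70 in MI mice, and its difference of -0.39 ± 0.18 had an adjusted p of 0.239. The remaining probe differed by -0.13 ± 0.18. The 3 probes thus had the same sign and differed in spread, with SDs in sham of 0.09 on the brightest and 0.38 and 0.34 on the others. Crat and Etfb are also in a list that the study drew from these same samples, so their place here is not independent of it.

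Cpt1b, the muscle form of carnitine palmitoyltransferase 1 and the step that malonyl-CoA inhibits, gave 2 probes with differences of -0.18 ± 0.11 (adjusted p = 0.374) and -0.20 ± 0.08 (adjusted p over probes = 0.191). Cpt2, which turns acylcarnitine back into acyl-CoA inside the mitochondrion, gave 3 probes between -0.06 and -0.12 with overlapping groups. The liver form Cpt1a and the peroxisomal carnitine octanoyltransferase Crot were detected on 0 of 17 arrays and are given no difference. Among the genes that set malonyl-CoA, Acacb, which makes it at the mitochondrial surface, differed by -0.26 ± 0.14 (adjusted p = 0.294). Mlycd, which breaks it down, differed by -0.22 ± 0.10 (adjusted p = 0.236). Both had a lower mean in MI, and neither passed the test.

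Among the acyl-CoA dehydrogenases, which open each round and differ in the chain length they take, the gene of the very-long-chain enzyme, Acadvl, had the smallest p. On the probe used, its log2 intensity was 12.88 to 13.18 (median 13.09) in sham and 12.67 to 12.91 (median 12.86) in MI mice, and in MI+Val mice 1 to 5 it was 12.92, 13.10, 12.98, 12.86 and 12.97. The sham and MI ranges met only at their edges. The difference was -0.24 ± 0.08, with an adjusted p of 0.104. The other Acadvl probe differed by -0.19 ± 0.10. With the authors' deposited values the adjusted p was 0.0354, without background correction it was 0.0376, and with chip in the model it was 0.36.

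The medium-chain gene Acadm differed by -0.10 (95% interval -0.27 to 0.07) and the long-chain gene Acadl by -0.01 (-0.26 to 0.24). The short-chain gene Acads differed by 0.12 (-0.09 to 0.32) on the probe used and by -0.10 on the brighter one. Acad9, which also serves in the assembly of complex I, differed by 0.04 (-0.21 to 0.28). Acad10, a relative of less settled substrate, was dim. Its log2 intensity was 5.70 to 6.50 (median 6.15) in sham and 5.56 to 6.08 (median 5.60) in MI mice, and in MI+Val mice 1 to 5 it was 5.76, 5.95, 6.05, 6.44 and 6.15. The groups overlapped, and MI minus sham was -0.35 ± 0.14 (adjusted p = 0.172). The other passing probe of Acad10 differed by -0.27 ± 0.14.

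The electron transfer flavoprotein takes electrons from all of these dehydrogenases. Etfb, its beta subunit, was tightly grouped in sham mice. The log2 intensity on the probe used was 13.37 to 13.45 (median 13.39) in sham and 12.98 to 13.31 (median 13.10) in MI mice, and in MI+Val mice 1 to 5 it was 13.46, 12.98, 13.18, 12.99 and 13.07. Sham and MI mice did not overlap, and 4 of 5 MI+Val mice were below the highest MI mouse while mouse 1 lay above every sham mouse. The difference was -0.28 ± 0.09, a ratio of 0.82, with an adjusted p of 0.0713. The other Etfb probe also separated sham from MI mice, with a difference of -0.23 ± 0.07. Leaving out single mice gave adjusted p from 0.0363 (without MI+Val mouse 1) to 0.129 (without MI mouse 3), and leaving out the 5 mice with detected Myl7 gave 0.254. With the authors' deposited values the adjusted p was 0.00695, and with chip in the model it was 0.065.

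The alpha subunit gene Etfa gave 3 probes with differences of -0.10, -0.16 and -0.18, none of which passed. Etfdh, the oxidoreductase that hands the electrons to ubiquinone, gave probes of opposite sign. The probe used, which was dim, had 4.62 to 6.03 in sham and 5.48 to 6.51 in MI mice and differed by 0.34 ± 0.22 (adjusted p = 0.427). The brightest probe had 11.73 to 12.33 in sham and 11.29 to 11.91 in MI mice and differed by -0.33 ± 0.12 (adjusted p over probes = 0.128). The other dim probes differed by -0.30 and -0.11. No direction is given for Etfdh.

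**Figure D2:**
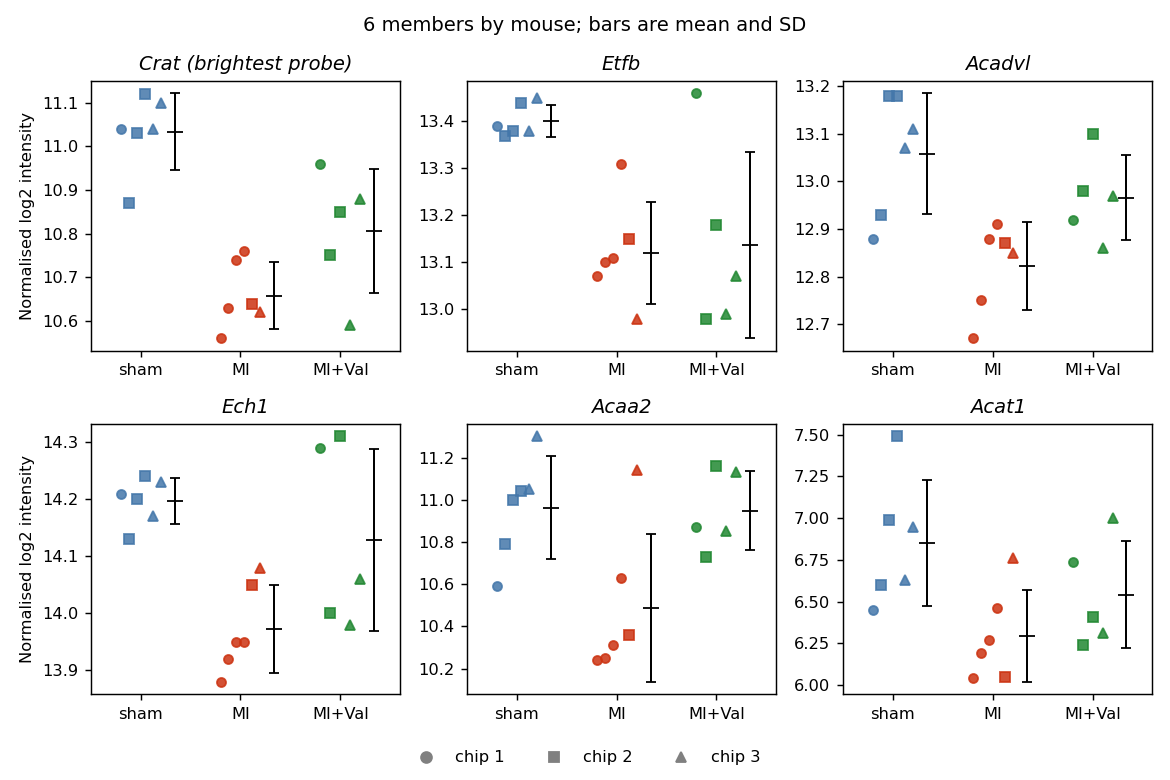
Normalised log2 intensity by mouse for Crat (brightest probe) and for Etfb, Acadvl, Ech1, Acaa2 and Acat1 (probe used for the gene), in sham (n = 6), MI (n = 6) and MI+Val (n = 5) mice. Symbols give the chip, bars beside the points are mean and SD, and each panel has its own axis, which does not start at 0. Sham and MI mice do not overlap for Crat, Etfb and Ech1.

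The later steps in mitochondria had a median difference of -0.44 between MI and sham over 6 genes on the probes used, all negative and none called. The median was -0.34 with chip in the model, -0.28 with the brightest probe per gene and -0.17 with the deposited values. Acat1, a thiolase of ketone body and short-chain metabolism, had a log2 intensity of 6.45 to 7.49 (median 6.79) in sham and 6.04 to 6.76 (median 6.23) in MI mice. In MI+Val mice 1 to 4 it was 6.74, 6.24, 6.41 and 6.31, and mouse 5 was the highest of that group. The groups overlapped, and the difference of -0.56 ± 0.17, a ratio of 0.68, had an adjusted p of 0.0657. Leaving out single mice gave adjusted p from 0.0338 (without MI mouse 6, the highest of its group) to 0.145 (without sham mouse 3, where the difference was -0.43), with 0.0381 without sham mouse 1, the lowest of its group. It was 0.227 with chip in the model and 0.197 without the 5 mice with detected Myl7.

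Acaa2, the mitochondrial 3-ketoacyl-CoA thiolase, was the only gene among the 5 smallest p with 4 probes. On the probe used the log2 intensity was 10.59 to 11.30 (median 11.02) in sham and 10.24 to 11.14 (median 10.34) in MI mice, and in MI+Val mice 1 to 5 it was 10.87, 10.73, 11.16, 10.85 and 11.13. MI mouse 6, at 11.14, lay within the sham range and the other MI mice at or below 10.63. The difference was -0.48 ± 0.15, a ratio of 0.72, with an adjusted p of 0.0685. The other 3 probes differed by -0.40, -0.38 and -0.35, and the mean over the 4 probes passed at an adjusted p of 0.0492. On the probe used, leaving out single mice gave adjusted p from 0.00874 (without MI mouse 6) to 0.159 (without sham mouse 5), with 0.0371 without sham mouse 1. It was 0.25 with chip in the model and 0.4 without the 5 mice with detected Myl7.

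The genes of the trifunctional protein, whose shared promoter is printed above, did not pass the test. Hadha, measured by 1 dim probe, differed by -0.51 ± 0.28 (95% interval -1.10 to 0.07). Hadhb differed by -0.13 ± 0.10 (-0.33 to 0.07). Echs1, the short-chain enoyl-CoA hydratase, differed by -0.40 ± 0.18 on the probe used (adjusted p = 0.226) and by -0.16 ± 0.08 on the brighter probe. Hadh, the hydroxyacyl-CoA dehydrogenase for medium and short chains, differed by -0.09 ± 0.13 and had 5.58 to 6.18 in sham mice, 5.56 to 5.91 in MI mice and 5.86 to 6.52 in MI+Val mice. Its other probe did not pass the filter.

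Fatty acids with double bonds need auxiliary enzymes, and the 4 such genes measured all had a lower mean in MI. For Ech1, the dienoyl-CoA isomerase of mitochondria and peroxisomes, the log2 intensity was 14.13 to 14.24 (median 14.20) in sham and 13.88 to 14.08 (median 13.95) in MI mice. In MI+Val mice 1 to 5 it was 14.29, 14.00, 14.31, 13.98 and 14.06. Sham and MI mice did not overlap, and MI+Val mice 1 and 3 lay above every sham mouse while the other 3 lay in the MI range. The difference of -0.22 ± 0.08, a ratio of 0.86, had an adjusted p of 0.126, which was 0.0426 with the authors' deposited values, 0.0482 without background correction and 0.277 with chip in the model. Decr1, the dienoyl-CoA reductase, differed by -0.20 ± 0.09 (adjusted p = 0.239). The enoyl-CoA isomerases Eci1 and Eci2 each differed by -0.07.

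The peroxisomal enzymes showed no common direction. Acaa1a, the peroxisomal thiolase, differed by 0.10 (95% interval -0.11 to 0.30) between MI and sham. Hsd17b4, the D-bifunctional protein, differed by -0.07 (-0.24 to 0.09), and Pecr, a trans-2-enoyl-CoA reductase, by -0.34 (-0.72 to 0.03). Ehhadh, the L-bifunctional protein, was detected on 7 of 17 arrays and did not pass the filter. The median over the 3 peroxisomal genes was -0.07, against -0.17 over the 20 mitochondrial genes and -0.23 over the 6 of both or other locations. Averaged per mouse over the genes of a compartment, each centred on its own mean, mitochondrial members were at 0.09 ± 0.07 (SD) in sham mice, -0.09 ± 0.07 in untreated MI mice and 0.01 ± 0.07 in MI+Val mice, and peroxisomal members at 0.07 ± 0.10, -0.03 ± 0.14 and -0.05 ± 0.16. The groups were spread unevenly over the chips. For the mitochondrial members, the 1 sham mouse on the first chip was at -0.06, and the 4 MI mice there at -0.18 to -0.04. On the other chips the MI mice were at -0.05 and 0.00, and the sham mice at 0.09 to 0.14. Whether the compartments differ was not tested.

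**Figure D3:**
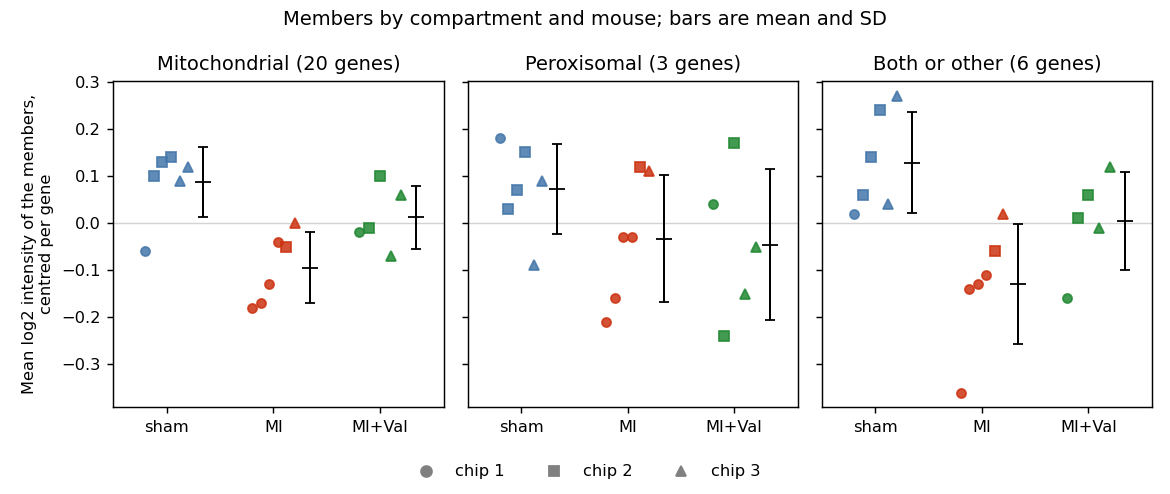
Mean log2 intensity of the measured members of each compartment in each mouse, after centring each gene, with symbols for the chip and bars for mean and SD (n = 6 sham, 6 MI, 5 MI+Val). The mitochondrial means ran from -0.06 to 0.14 in sham and from -0.18 to 0.00 in MI mice, and the peroxisomal means of the groups overlapped widely.

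Valsartan was compared with vehicle in the infarcted mice. The log2 difference between MI+Val and MI was positive in 22 of 29 members, with a median of 0.08 and a range from -0.13 to 0.46, whereas the median over all genes was 0.00. None of the members passed the adjusted test, and neither did any other of the 8236 genes (0% called). At an unadjusted p under 0.05, 4 members were higher and 0 lower, against 4.50% and 4.72% of all genes. In 0 members did the groups not overlap, as in 1.12% of all genes. With chip in the model 1 member was higher and 0 lower (3.22% and 3.48% of all genes), and without the 5 mice with detected Myl7 0 were higher and 0 lower (4.86% and 5.17%). Within chips 1 and 2 the median over members was 0.11 and 0.12. Within chip 3 it was -0.02, with 16 of 29 members negative. Each of these medians rests on 1 MI+Val array (chip 1) or 1 MI array (chips 2 and 3). The mitochondrial genes outside beta-oxidation had a median of 0.13, above that of the members, with 8 of 11 positive. The cardiomyocyte markers also had a positive median, 0.19, and the macrophage markers a negative one, -0.27. The part of these was not tested.

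The 4 higher members were Acaa2, Hadh, Acad10 and Hadhb. Acaa2 differed by 0.46 ± 0.16 between MI+Val and MI (adjusted p = 0.348 in limma) on the probe used, but by 0.10, 0.08 and 0.04 on its other 3 probes. All MI+Val mice were above 5 of the 6 MI mice on the probe used, and MI mouse 6 lay among them. Hadh differed by 0.34 ± 0.14 (adjusted p = 0.436), Acad10 by 0.33 ± 0.15 (adjusted p = 0.528) and Hadhb by 0.21 ± 0.10 (adjusted p = 0.54). Without background correction Hadh differed by 0.15 and Acad10 by 0.13. Hadhb had 12.77 to 13.08 (median 12.93) in MI mice, and in MI+Val mice 1 to 5 it had 12.86, 13.14, 13.14, 13.25 and 13.33. The groups overlapped only through MI+Val mouse 1. Ech1 followed with a difference of 0.15 ± 0.09 (adjusted p = 0.62), and Acadvl, Acat1 and Etfb differed by 0.14, 0.25 and 0.02. On its brightest probe Crat differed by 0.15 ± 0.08, and on the probe used by -0.07 ± 0.19. Etfdh differed by -0.13 ± 0.23 on the dim probe used and by 0.35 ± 0.13 on its brightest probe (adjusted p over probes = 0.438 in limma). Its other dim probes differed by -0.04 and 0.19.

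**Figure D4:**
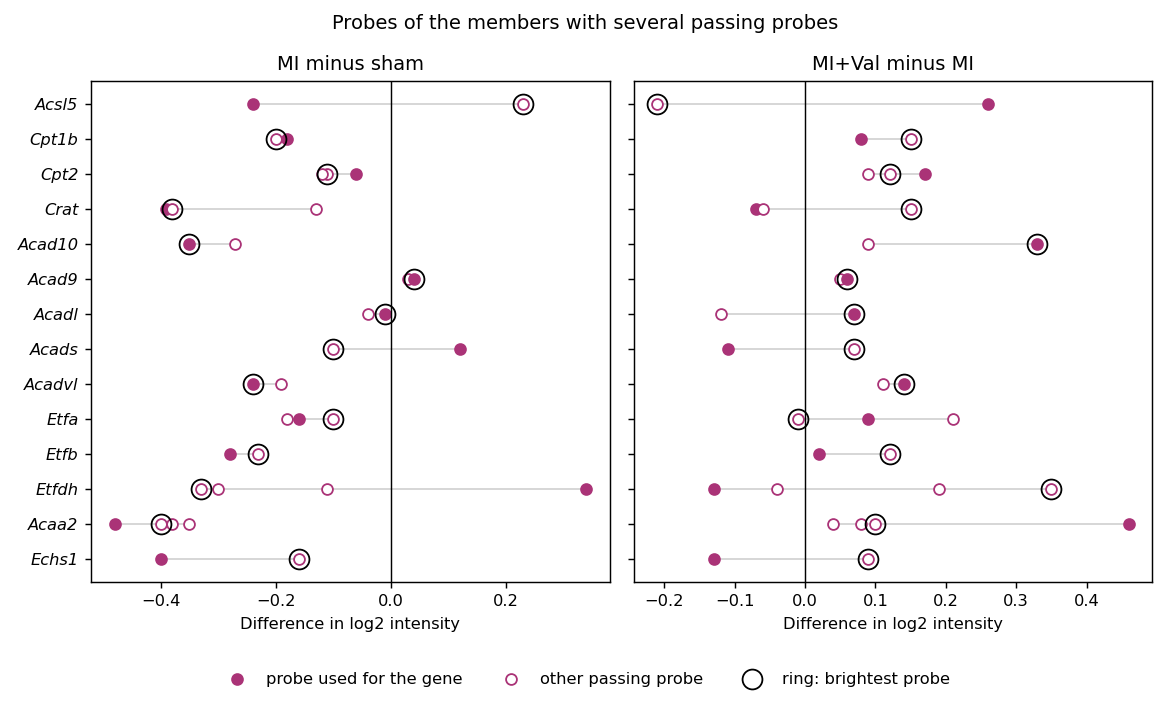
Difference in log2 intensity between MI and sham (left) and between MI+Val and MI (right) for every passing probe of the 14 members with several. Filled points are the probe used for the gene, open points its other passing probes, and rings mark the brightest. In the left panel the probes of Acsl5, Acads and Etfdh lie on both sides of 0.

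Over single probes, 44 of the 50 member probes had a negative difference between MI and sham, and 38 of 50 a positive difference between MI+Val and MI. The probe used was not the brightest in 10 of the 14 members with several probes, as the plot of probes shows. The comparisons share the MI mice, so their signs are not independent of each other.

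MI+Val mice were also set against sham mice. The median difference over the members was -0.07, 18 of 29 were negative, and 0 were called, where 1 gene in the whole table was (0.0121% of all). At an unadjusted p under 0.05, 4 members were lower, Echs1, Etfb, Crat and Hadha, and 0 were higher, against 3.50% and 3.75% of all genes. Echs1 differed by -0.53 ± 0.19 on the probe used, which was dim, but by -0.07 ± 0.09 on its brighter probe. Etfb differed by -0.26 ± 0.09 (adjusted p = 0.464), side by side with -0.28 between MI and sham, and Crat by -0.22 on its brightest probe, side by side with -0.38. Acaa2 differed by -0.01 on the probe used and by -0.31, -0.35 and -0.27 on the other 3. The mean of MI+Val lay between those of sham and MI in 17 of 29 members. The share over all genes is not given here, so this count has no reference.

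Other genes of fatty acid oxidation outside the set were listed too. Of 25, among them the carnitine carriers Slc25a20 and Slc22a5 and the peroxisomal oxidase Acox3, 13 were measured. Of these, 11 had a negative difference between MI and sham, with a median of -0.15, and 0 were called in any comparison. At an unadjusted p under 0.05, 4 were lower and 0 higher between MI and sham, against 9.93% and 9.76% of all genes, and 1 was lower and 1 higher between MI+Val and MI, against 4.72% and 4.50%. Slc22a5, the plasma membrane carnitine transporter, differed by -0.43 (adjusted p = 0.106), but it was dim, with a mean log2 intensity of 5.74 in sham and 5.32 in MI mice. Acadsb, the short and branched-chain dehydrogenase, differed by -0.26 between MI and sham and by 0.32 between MI+Val and MI, with adjusted p of 0.224 and 0.414. Decr2, the peroxisomal 2,4-dienoyl-CoA reductase, differed by 0.04 between MI and sham and by -0.36 between MI+Val and MI, with adjusted p of 0.901 and 0.444.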

How the data were processed

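The authors deposited, for 45281 probes on each of 17 arrays, the mean bead signal as an intensity without normalization, and beside it a detection p-value. Log2 values that the authors had normalized were deposited too, made with lumi under R 3.0.1 by variance stabilization and robust spline normalization. These were used as an alternative. Here limma 3.58.1 under R 4.3.3 corrected background from the detection p-values (neqc, offset 16), quantile normalized the arrays and took log2. The offset makes differences of dim probes smaller. Probes with 1 gene symbol and a 33rd percentile of signal of at least 125 were kept, and each gene was represented by its probe of widest interquartile range.

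A model of the 3 groups without covariates, with empirical Bayes moderation, gave every comparison, adjusted by Benjamini-Hochberg over 8236 genes, or over 11897 probes where a probe is named as such. Calls were at an adjusted p under 0.05 (F test, 0.10). The labels gave group and number, and the array identifiers the chip. The labels do not say whether mice were handled in batches. The number of arrays limits the precision. The code was tested on simulated data. Members, lists and the rule for named genes (members called, the 5 of smallest p between MI and sham, the 5 of smallest p between MI+Val and MI, each other member at least once) were chosen with earlier results of these data known. Crat and the single probes of members outside that rule were described after their values were seen.

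Alternatives changed background correction, scaling, the source of values, the filter, the probe per gene, chip and replicate number as blocks, the test, and left out each mouse. Same-numbered arrays of different groups form 16 pairs, and once group means were removed only 4 pairs correlated above 0.1, so the numbers were not taken as pairs. Promoter windows are RefSeq's on GRCm38.p6. Plots were made in Python 3.11.15 with matplotlib 3.10.9.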

Additional observations from a re-analysis of the deposited data

Results flagged for a closer look

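Among 87 sets of values (29 members in 3 groups), 4 had a single mouse set apart from its group by Dixon's test at 5%, a share that chance alone gives. The values given are the gap to the nearest mouse over the whole range. For Acaa1a in MI it was 0.6534, with mouse 1 at a log2 intensity of 12.12 and the others at 11.69 to 11.84. For Echs1 in sham it was 0.6344, with mouse 3 at 7.30 and the others at 6.33 to 6.69. For Decr1 in MI+Val it was 0.7866, with mouse 4 at 9.20 and the others at 9.55 to 9.65. For Acsl3 in MI+Val it was 0.8575, with mouse 5 at 5.87 and the others at 6.32 to 6.40. The mice were 4 different ones. The cause was not tested.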

How the results depend on the processing

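Counts of members called in MI+Val vs MI and in MI+Val vs sham stayed at 0 in each direction under every alternative run, as did the count called higher in MI vs sham. The count called lower in MI vs sham, 0 as reported against 2.32% of all genes, was 4 without background correction (Acadvl, Acaa2, Ech1, Etfb; 2.66% of all genes), 1 after scaling to the 75th percentile (Etfb; 2.38%), 3 with the authors' deposited values (Acadvl, Ech1, Etfb; 214 of 8236 genes), 1 with the brightest probe per gene (Crat; 2.29%), 2 with the mean of probes (Acaa2, Etfb; 2.42%) and 2 with the methods' t-test after adjustment (Ech1, Etfb; 1.76%). It was 0 with chip as a block (0.777%), without a filter (0.693%), with the detection filter (172 of 9076 genes) and without the 5 mice with detected Myl7 (0.741%). The methods' t-test at their threshold of p under 0.01 gave 3 lower and 0 higher members. The share of all genes at that threshold is not given here, so these 3 have no reference. With the replicate block the count called lower in MI vs sham was 1 (Acaa2, adjusted p = 0.0478 in limma), against 2.32% of all genes, and no other call of a comparison changed. Choices made after the data were seen gave 5 without background correction (2.88%) and 4 with the deposited values (2.74%) when probes were chosen again on them, 4 with the deposited values of the brightest probe (2.56%), and 1 with the brightest probe and chip as a block (0.959%). Leaving out each mouse gave 0 to 2 (1.17% to 2.66%). The F test, 0 as reported against 4.80% of all genes, called 2 without background correction (5.72%), 1 after scaling (4.54%), 1 with the deposited values (5.09%), 1 with the brightest probe (5.49%), 1 with the mean of probes (5.50%), 1 with the replicate block (5.16%), 3, 2, 2 and 1 under the 4 later choices in the order above (6.12%, 5.34%, 5.23% and 2.51%), and 0 to 2 without each mouse (2.74% to 5.51%). The median in MI vs sham was -0.12 with the deposited values and -0.13 without a filter, and -0.23 to -0.17 without each mouse. Hadh in MI+Val vs MI turned to -0.35 without a filter, where a probe not above background was taken, and Acaa2 was at 0.00 with the brightest probe and chip as a block. Apart from that of Hadh, the cause was not tested. The number of mice per group, 5 or 6, and their uneven spread over chips limit every one of these calls.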
